A study of Mus musculus with 16 samples.

Results

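Brown and inguinal fat of mice that had received only vehicle were compared by RNA sequencing, as 2 libraries of each tissue out of the 16 libraries of a study of sunitinib (Sutent), a drug taken by mouth that blocks several receptor tyrosine kinases. The members were the vehicle libraries of these tissues, chosen by their labels, and the gene symbols found in both tissues' tables whose mean value was at least 3 in either one, which left 14981 of the 18972 shared symbols. The groups were brown adipose tissue with vehicle and inguinal white adipose tissue with vehicle, both from C57BL/6 mice aged 24 weeks, and the sunitinib libraries of the same tissues (2 each) and the vehicle libraries of epididymal white fat and liver (2 each) were used only beside them. The series counted 8 mice, 4 on each treatment. The labels name no transgene, no sex and no housing temperature, do not say what the vehicle was, and do not tie a library to 1 mouse or to a pool.

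Brown fat burns fuel to make heat: uncoupling protein 1 lets protons return across the inner mitochondrial membrane without making ATP, and noradrenaline drives this by way of beta-adrenergic receptors, cyclic AMP and lipolysis. Inguinal fat is a subcutaneous white depot of the mouse that stores triglyceride and secretes leptin and other hormones, and in the cold it can form beige adipocytes that contain uncoupling protein 1. In both tissues adipocytes lie among blood vessels, fibroblasts, nerves and immune cells, and the inguinal depot of the mouse encloses a lymph node.

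The deposited values were regularized logarithms (rlog), a log2 expression value per gene in which the spread between libraries is drawn towards the gene's mean, most strongly where reads are few. The authors normalized each tissue's table apart, and the medians of the 14981 symbols were 6.88 and 6.91 in the brown libraries, against 8.01 and 7.96 in the inguinal libraries. The 4 libraries were therefore quantile-normalized together, which gives them the same distribution of values, and every level and difference below is on that log2 scale unless it is said to be as deposited. A difference is the brown mean minus the inguinal mean. A symbol was called where that difference was at least 1 and neither brown library lay within the range of the inguinal ones. No p-value is given, because the tables were normalized separately and because an exact permutation test of 2 against 2 libraries cannot give a p below 0.3333. The number of reads per library is unknown from rlog values. A level is not divided by transcript length, so levels are compared between tissues for 1 gene and not between genes. In whole tissue, fewer cells of a type and less RNA per cell cannot be told apart.

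Promoter sequence is shown for the gene that stood highest above inguinal fat, Ucp1, for Dio2, the member of the thermogenic list that held 2 of the motifs searched, and for Lep, the best-known hormone gene of white fat. The 250 bases before the RefSeq start are given on the gene's strand, in build GRCm38.p6. They lie at chr8:83290098-83290347 on the plus strand for Ucp1, at chr12:90739039-90739288 on the minus strand for Dio2 and at chr6:29059971-29060220 on the plus strand for Lep. Capitals mark a cyclic AMP response element (TGACGTCA) and a TATA motif (TATAAA).
Ucp1: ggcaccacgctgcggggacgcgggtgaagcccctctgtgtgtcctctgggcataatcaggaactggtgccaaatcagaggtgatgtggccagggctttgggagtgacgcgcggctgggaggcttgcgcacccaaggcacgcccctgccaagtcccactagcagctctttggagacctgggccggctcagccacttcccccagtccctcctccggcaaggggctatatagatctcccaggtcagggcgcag
Dio2: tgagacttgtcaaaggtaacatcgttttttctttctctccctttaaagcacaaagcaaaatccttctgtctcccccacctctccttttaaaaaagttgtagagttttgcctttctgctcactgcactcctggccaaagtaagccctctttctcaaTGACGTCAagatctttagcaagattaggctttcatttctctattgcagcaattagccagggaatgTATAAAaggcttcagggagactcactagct
Lep: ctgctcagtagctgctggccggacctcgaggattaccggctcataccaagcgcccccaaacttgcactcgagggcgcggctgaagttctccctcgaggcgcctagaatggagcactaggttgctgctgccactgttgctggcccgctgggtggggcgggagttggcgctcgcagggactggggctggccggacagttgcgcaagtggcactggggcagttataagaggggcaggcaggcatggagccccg
In Dio2 the first match began 95 bases and the second 30 bases before the start.

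The markers of the tissue labels stood where the labels put them. Ucp1, which encodes uncoupling protein 1, was at 16.50 in both brown libraries, against 4.42 and 4.06 in the inguinal libraries, a difference of 12.26, the largest of the 14981 symbols compared. As deposited its values were 16.68 and 16.46 in brown fat, against 5.08 and 4.66 in inguinal fat. At the top of the scale a gene that holds the same rank in both libraries of a tissue is given the same normalized value, which is why the brown values are equal. Lep, which encodes the adipocyte hormone leptin, was at 8.57 and 9.61 in brown fat, against 16.02 and 16.73 in inguinal fat, a difference of −7.28. Both genes separated the tissues in every library.

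Of the 14981 symbols, 2720 were called higher in brown fat (18.2%) and 2813 lower (18.8%), and the median difference of all symbols was 0.04. The counts of every gene list below are to be read beside these shares. A difference without overlap of either pair was common whatever its size, with 7051 symbols higher and 6485 lower. Differences of at least 2 were called for 979 symbols higher and 1198 lower in brown fat, at least 4 for 194 and 139, and at least 6 for 41 and 27. Among the called symbols, 637 of the higher ones had an inguinal mean under 3, and 761 of the lower ones had a brown mean under 3, where few reads and the shrinkage of rlog leave the size of a difference uncertain. The split between directions depends on the scaling between the tables. As deposited, with no common scaling, 854 symbols were higher and 7496 lower, and with the libraries centred on the cytosolic ribosomal proteins 1718 were higher and 3983 lower. The median difference of all symbols was −1.003 with no common scaling and −0.28 with ribosomal centring. Libraries of 1 tissue had a Pearson correlation over symbols of 0.995 in brown fat and 0.996 in inguinal fat, and libraries of different tissues 0.848 to 0.861, with symbols sharing library and depth.

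**Figure D1:**
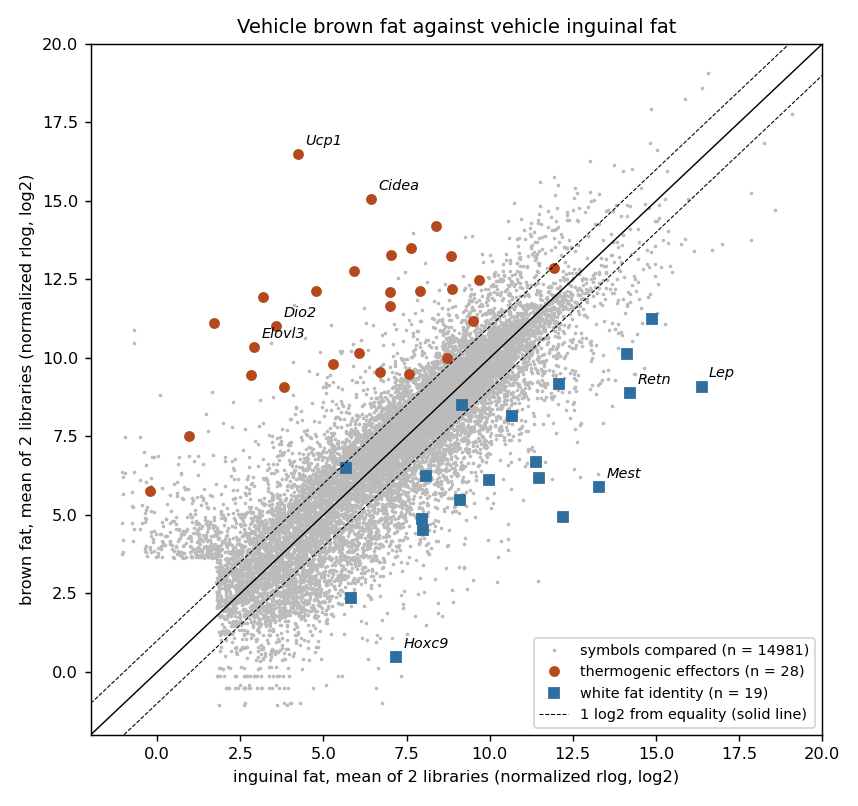
Mean normalized rlog (log2) of 14981 symbols in the 2 vehicle brown fat libraries (vertical axis) against the 2 vehicle inguinal fat libraries (horizontal axis), with 28 thermogenic effectors (circles) and 19 white fat identity genes (squares). The solid line marks equal levels and the dashed lines a difference of 1, and Ucp1 lies 12.26 above equality and Lep 7.28 below it.

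Thermogenic effector genes were higher in brown fat almost without exception: 27 of 28 were called higher and 0 lower, with a median difference of 5.52 against 0.04 over all symbols. Cidea, which encodes a lipid droplet protein of brown adipocytes, was at 15.01 and 15.09 in brown fat, against 6.11 and 6.74 in inguinal fat. Dio2, the deiodinase that makes active thyroid hormone within the cell, was at 11.25 and 10.80 in brown fat, against 3.58 and 3.59 in inguinal fat. Elovl3, an elongase of very long chain fatty acids, was at 10.72 and 9.99 in brown fat, against 2.68 and 3.16 in inguinal fat. The differences of these genes were 8.62, 7.44 and 7.44.

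Several members of the list lay near the bottom of the scale in inguinal fat. Cpt1b, the muscle-type carnitine palmitoyltransferase that admits fatty acids to mitochondria, was at 7.50 and 7.53 in brown fat, against 0.98 and 0.91 in inguinal fat. Gyk, the glycerol kinase that returns glycerol to triglyceride, was at 5.81 and 5.72 in brown fat, against −0.22 and −0.19 in inguinal fat. Aspg, an asparaginase, was at 11.20 and 11.05 in brown fat, against 1.75 and 1.67 in inguinal fat. For such genes the inguinal value stands for few or no reads, so the differences of 6.57, 5.98 and 9.42 rest on the shrunken low end of the scale.

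Slc27a2, a fatty acid transporter and acyl-CoA synthetase, was at 12.11 and 11.78 in brown fat, against 3.26 and 3.12 in inguinal fat. Acot11, a thioesterase induced by cold in brown fat, was at 12.20 and 12.06 in brown fat, against 4.78 and 4.75 in inguinal fat. Pank1, which starts the synthesis of coenzyme A, was at 12.83 and 12.69 in brown fat, against 5.78 and 6.05 in inguinal fat. These enzymes of fatty acid activation and handling differed by 8.75, 7.37 and 6.84. Otop1, a proton channel, differed by 4.65, Letmd1, a mitochondrial protein needed for thermogenesis in mice, by 4.40, and Clstn3, whose adipocyte form acts at lipid droplets, by 3.32. Plin5, a perilipin that brings lipid droplets to mitochondria, was at 12.16 and 12.13 in brown fat, against 7.83 and 7.98 in inguinal fat, a difference of 4.24. S100b, which is made in brown adipocytes and also in Schwann cells, differed by 5.13.

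The coactivators of mitochondrial biogenesis were higher in brown fat too. Ppargc1a was at 9.57 and 9.53 in brown fat, against 6.65 and 6.77 in inguinal fat, a difference of 2.84. Ppargc1b was at 9.86 and 9.73 in brown fat, against 5.29 and 5.27 in inguinal fat, a difference of 4.52. The smallest differences of the list were those of Kcnk3, a potassium channel, at 2.83, of Slc29a1, a nucleoside transporter, at 1.92, of Ucp3, the uncoupling protein best known from muscle, at 1.66, and of Fbxo31, an F-box protein, at 1.29. Slc36a2, an amino acid transporter used as a surface marker of brown adipocytes, was the member not called, at 12.92 and 12.79 in brown fat, against 11.88 and 11.98 in inguinal fat, a difference of 0.93. The summed level of the list was 17.85 and 17.84 (log2) in brown fat, against 13.06 and 13.09 in inguinal fat, and the brown sum includes Ucp1, which normalization makes equal in both brown libraries.

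**Figure D2:**
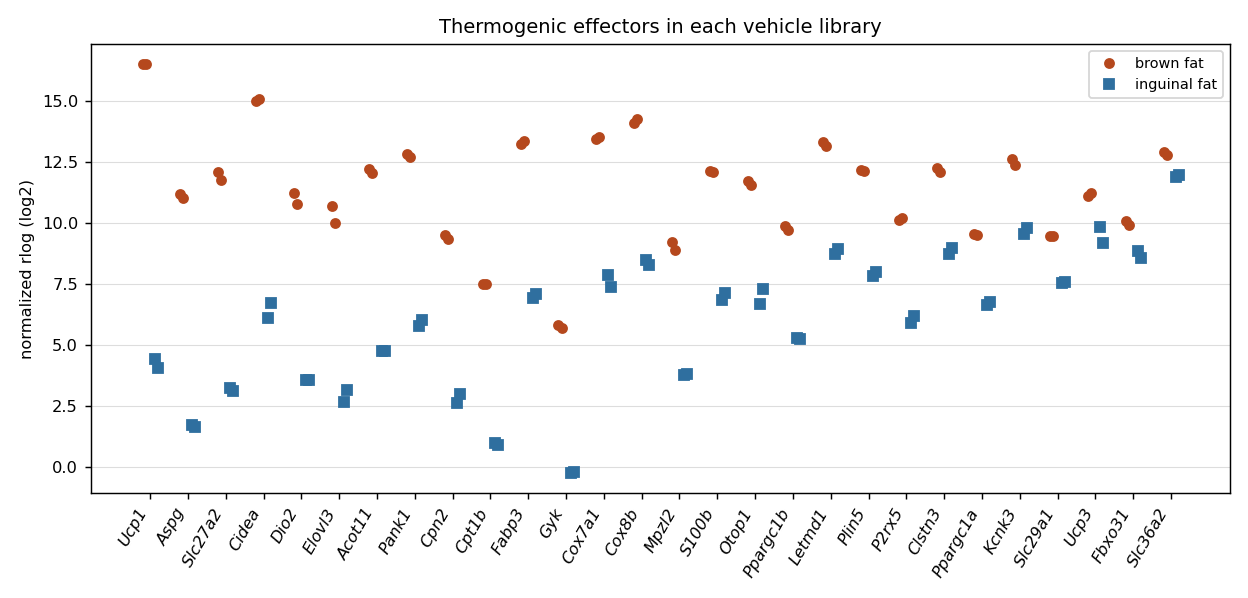
Normalized rlog (log2) of the 28 thermogenic effectors in each vehicle library, with the 2 brown fat libraries as circles left of the 2 inguinal fat libraries as squares, ordered by the difference between tissues. The pairs separate in every gene, from 12.26 in Ucp1 at the left to 0.93 in Slc36a2 at the right.

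Among the 15 named genes with the largest higher values in brown fat, several are known for other roles. Lgr6, a receptor for R-spondins, which strengthen Wnt signals, was at 11.00 and 10.78 in brown fat, against −0.70 and −0.69 in inguinal fat, a difference of 11.59 and next after Ucp1. Ptgds, a prostaglandin D2 synthase, was at 8.80 and 8.83 in brown fat, against 0.08 and 0.08 in inguinal fat. Slc2a5, the fructose transporter, was at 7.31 and 7.63 in brown fat, against −0.53 in both inguinal libraries. All 3 were at the low end of the scale in inguinal fat. Kng2, a kininogen, differed by 7.59, but it has the near-identical neighbour Kng1, and how the authors' counting split reads between such copies is not given in the sources used here. Sgk2, a kinase, differed by 7.39 and Gldn, the extracellular protein gliomedin, by 7.26. Spata17 differed by 7.24 and Hpcal4, a calcium sensor of the recoverin family, by 7.07.

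Tissue-type isoforms of the respiratory chain and of fuel transport differed more than their ubiquitous partners in some pairs and not in others. Cox7a1, the heart and muscle form of a cytochrome c oxidase subunit, was at 13.46 and 13.53 in brown fat, against 7.86 and 7.38 in inguinal fat, a difference of 5.88. Its partner Cox7a2 was at 13.14 and 13.33 in brown fat, against 11.01 and 11.26 in inguinal fat, a difference of 2.1. Cox8b was at 14.11 and 14.28 in brown fat, against 8.50 and 8.28 in inguinal fat, a difference of 5.80, and Cox8a differed by 1.36. So both members of these pairs were higher in brown fat, and the muscle-type member by more. Cox4i2, the lung form, differed by 1.44, and its partner Cox4i1 by 1.85.

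The carnitine palmitoyltransferases went in opposite directions. Cpt1b differed by 6.57, as given above, while Cpt1a, the liver form, was at 8.63 and 8.49 in brown fat, against 10.79 and 10.74 in inguinal fat, a difference of −2.21. Likewise Fabp3, the heart fatty acid binding protein, was at 13.23 and 13.35 in brown fat, against 6.95 and 7.10 in inguinal fat, a difference of 6.27, and a processed copy with its sequence (Fabp3-ps1) was also listed, so reads could be shared. Fabp4, the adipocyte form, was at 16.73 and 16.98 in brown fat, against 18.26 in both inguinal libraries, a difference of −1.40 that was 0.03 when the libraries were centred on their medians instead.

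The uncoupling proteins also split. Ucp2, which is common in immune cells and other tissues, was at 8.92 and 8.96 in brown fat, against 11.69 and 11.43 in inguinal fat, a difference of −2.62. Ucp3 was at 11.12 and 11.23 in brown fat, against 9.83 and 9.19 in inguinal fat. Of 18 isoforms compared in all, 12 were called higher and 4 lower in brown fat.

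**Figure D3:**
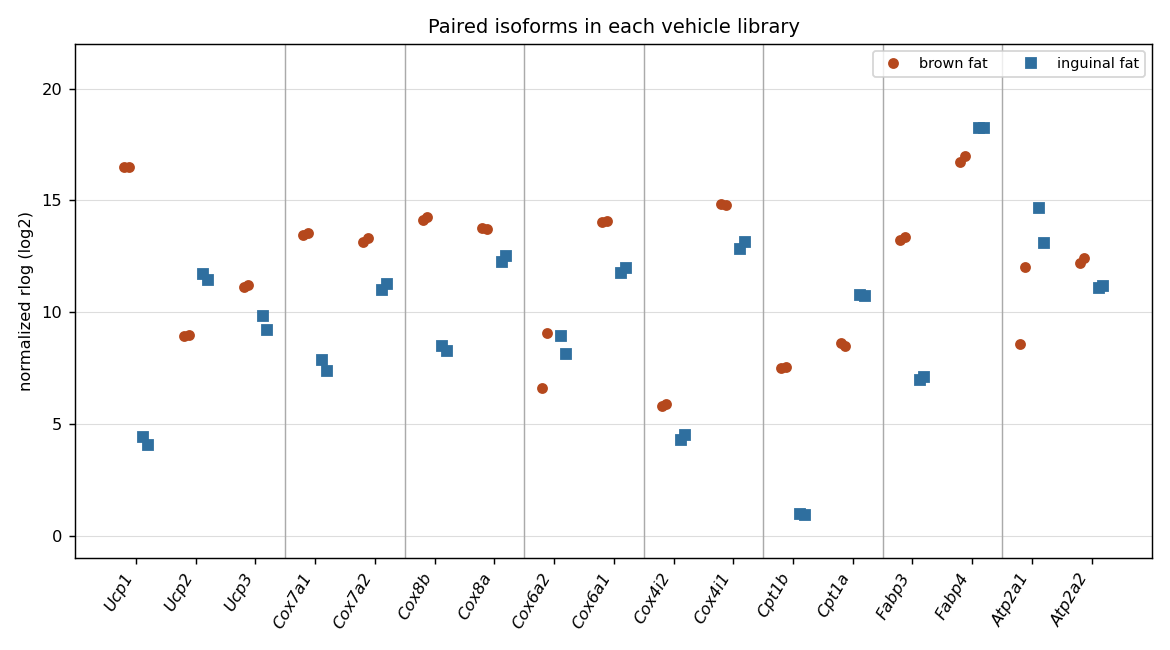
Normalized rlog (log2) of paired isoforms in each vehicle library, with brown fat as circles left of inguinal fat as squares, and vertical lines between families. Cox7a1 and Cox8b lie 5.88 and 5.80 higher in brown fat and their partners 2.1 and 1.36, while Cox6a2 and Atp2a1 spread widely between the brown libraries.

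Skeletal muscle RNA varied between libraries and bears on some of these isoforms. The summed level of 24 skeletal muscle genes was 13.06 and 16.33 (log2) in the brown libraries, against 18.10 and 16.60 in the inguinal libraries, so brown library 1 held the least and inguinal library 1 the most. Acta1, skeletal muscle actin, was at 9.44 and 13.09 in brown fat, against 15.43 and 14.14 in inguinal fat. Of the 24 genes, 11 were called lower in brown fat and 0 higher, with a median of −2.34, which was −0.57 without brown library 1, with 9 lower and 3 higher, and −4.04 without brown library 2, with 21 lower and 0 higher. Without inguinal library 1 the median was −1.61, with 10 lower and 0 higher, and without inguinal library 2 it was −3.11, with 20 lower and 1 higher.

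The genes that spread with muscle in brown fat were Cox6a2, at 6.63 and 9.09, Ckmt2, the muscle mitochondrial creatine kinase, at 7.23 and 10.67, and Atp2a1, the fast-muscle calcium pump, at 8.57 and 12.04. In inguinal fat they were at 8.94 and 8.15, at 9.31 and 8.82, and at 14.65 and 13.09. The part of muscle RNA in their differences of −0.69, −0.11 and −3.56 was not tested. Muscle also expresses Cox7a1, Cox8b, Cpt1b and Fabp3, whose values in each library are given above, and the part of muscle RNA in their differences was not tested either. Atp2a2, the calcium pump of other tissues, was at 12.20 and 12.44 in brown fat, against 11.07 and 11.15 in inguinal fat, a difference of 1.21.

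Nuclear genes of oxidative phosphorylation were higher in brown fat across the complexes: of 81 compared, 76 were called higher, 1 lower and 4 were not called, with a median of 2.22 against 0.04 over all symbols. All 35 compared subunits of complex I, which takes electrons from NADH, were called higher, within the narrow range of 1.22 for Ndufa7 to 2.86 for Ndufv1 and with a median of 2.30. All 13 of complexes II and III with cytochrome c were called higher, from 1.82 for Sdhc to 3.07 for Sdhb, with a median of 2.56. Ndufv1 was at 14.31 in both brown libraries, against 11.39 and 11.50 in inguinal fat, and Sdhb at 14.29 and 14.32 in brown fat, against 11.14 and 11.33 in inguinal fat. In complex IV, cytochrome c oxidase, 16 of 17 were called higher and 0 lower with a median of 2.19, and the exception was Cox6a2. With no common scaling 29 of complex I were higher and 0 lower, with a median of 1.58. There all 13 of complexes II and III were still higher, with a median of 2.04. In complex IV 13 were higher and 1 lower there, with a median of 1.67.

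ATP synthase, the enzyme that uncoupling protein 1 bypasses, was higher in brown fat for most subunits, while the genes of its membrane ring differed from each other. Of 16 genes, 12 were called higher and 1 lower, with a median of 1.89. With no common scaling 10 were higher and 3 lower, with a median of 1.37. Atp5b, the catalytic beta subunit, was at 16.98 and 16.73 in brown fat, against 14.78 and 14.89 in inguinal fat, a difference of 2.02, and Atp5j2, a small membrane subunit, differed by 2.60. Atp5g1, Atp5g2 and Atp5g3 encode the same mature subunit c, which forms the ring that turns as protons pass. Atp5g1 was at 7.63 and 9.14 in brown fat, against 9.94 and 9.71 in inguinal fat, a difference of −1.44. Without brown library 1 the difference was −0.67 and not called. The higher brown value was in brown library 2, which also held more muscle RNA, and the part of muscle RNA was not tested. Atp5g2 was at 11.64 and 11.76 in brown fat, against 10.54 in both inguinal libraries, a difference of 1.17, and Atp5g3 at 11.73 and 11.97 in brown fat, against 12.32 and 12.56 in inguinal fat, a difference of −0.59 that was not called. Atpif1, the inhibitor of the enzyme, was at 6.72 and 6.83 in brown fat, against 7.54 and 7.51 in inguinal fat, a difference of −0.75 that was not called either. The remaining gene not called was Atp5j, at 0.44.

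All 13 compared genes of the mitochondrial genome, with 4 for proteins, 8 for transfer RNAs and 1 for ribosomal RNA, were called higher in brown fat, by 2.06 to 6.85. They were looked at after their values were seen. mt-Co3, a subunit of complex IV, was at 19.08 in both brown libraries, against 16.62 and 16.50 in inguinal fat, and mt-Nd4, a subunit of complex I, at 18.59 in both brown libraries, against 16.50 and 16.28 in inguinal fat. Their differences were 2.52 and 2.20, and mt-Nd3 and mt-Nd5, also of complex I, differed by 3.94 and 2.06. As deposited mt-Co3 was at 19.41 and 19.51 in brown fat, against 16.39 and 16.53 in inguinal fat. For mt-Nd4 the deposited values were 19.03 and 18.98, against 16.33 and 16.45, so the size of these differences depends on the common scaling. Mitochondrial RNA that is short or carries little poly(A) depends on how libraries were made, which the labels give only as a standard Illumina protocol.

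The citric acid cycle and its entry enzymes followed, with all 20 genes called higher in brown fat, from 1.82 to 3.48, and a median of 2.49. Suclg1, a subunit of succinyl-CoA synthetase, was at 14.38 and 14.46 in brown fat, against 10.89 and 10.99 in inguinal fat. Pdk4, a kinase that switches pyruvate dehydrogenase off, was at 15.51 in both brown libraries, against 12.46 and 11.65 in inguinal fat, a difference of 3.45. Of 24 genes of mitochondrial transcription, translation and protein import, 17 were called higher and 0 lower with a median of 1.42, and with no common scaling 7 were higher and 1 lower with a median of 0.50. Mrpl34, a mitochondrial ribosomal protein, differed by 2.45 and Tfam, a packaging and transcription factor of mitochondrial DNA, was at 9.47 and 9.44 in brown fat, against 8.38 and 8.41 in inguinal fat, a difference of 1.06.

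Fatty acid oxidation was higher in brown fat for 21 of 24 genes and lower for 1, with a median of 2.40. Hadhb, a subunit of the trifunctional protein, was at 14.93 in both brown libraries, against 10.65 and 10.80 in inguinal fat, a difference of 4.21. Acaa2, which releases acetyl-CoA in the last step of a round, was at 15.62 in both brown libraries, against 11.40 and 11.62 in inguinal fat, a difference of 4.11. The gene called lower was Cpt1a. Hsd17b4, which works in peroxisomes, another site of fatty acid oxidation, was not called, at 0.01.

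Genes of fatty acid and triglyceride synthesis differed in both directions. Of 20 compared, 7 were called higher and 4 lower in brown fat, against 18.2% and 18.8% of all symbols. Their median was 0.14, and −0.53 with no common scaling. Acacb, the acetyl-CoA carboxylase of the mitochondrial surface, was at 13.99 and 13.63 in brown fat, against 10.74 and 10.40 in inguinal fat. Acaca, the cytosolic form, was at 14.31 and 14.42 in brown fat, against 11.87 and 12.09 in inguinal fat. Mlxipl, the carbohydrate response element binding protein, was at 7.58 and 7.57 in brown fat, against 4.78 and 4.72 in inguinal fat. The differences of these genes were 3.24, 2.39 and 2.83. Gpam, an acyltransferase that starts glycerolipid synthesis, was higher as well, by 2.60. Those lower were the acyltransferases Mogat2, by −2.60, and Dgat2, by −1.45, and the desaturases Scd2, by −2.02, and Scd1, by −1.31. Scd1 was at 17.77 in both brown libraries, against 19.08 in both inguinal libraries, and its difference was 0.36 with median centring, where Dgat2 was at −0.63 and was not called.

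Of 21 genes of glucose uptake and glycolysis, 11 were called higher and 2 lower in brown fat, with a median of 1.29, against 7 higher and 4 lower and a median of 0.58 with no common scaling. Ldhb, the lactate dehydrogenase form of oxidative tissue, was at 13.28 and 13.31 in brown fat, against 9.77 and 10.27 in inguinal fat, and Pfkl, the liver form of phosphofructokinase, at 13.67 and 13.49 in brown fat, against 10.74 and 10.93 in inguinal fat. Eno1 and Pkm2 differed by 3.17 and 2.81, but genes of this pathway have processed copies with which reads could be shared. Pfkfb3, a regulator of phosphofructokinase, differed by −1.30 and Irs2, an adaptor of the insulin receptor, by −1.22.

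Creatine, calcium and glycerol cycles, proposed as further sources of heat in fat, were mixed, with 8 of 18 genes called higher and 3 lower in brown fat and a median of 0.94, against 5 higher and 6 lower and a median of 0.17 with no common scaling. Gpd2, the mitochondrial glycerol phosphate dehydrogenase, was at 13.95 and 13.76 in brown fat, against 9.44 and 9.09 in inguinal fat, a difference of 4.59. Ryr2, a calcium release channel, was at 9.32 and 9.17 in brown fat, against 6.06 and 5.93 in inguinal fat, a difference of 3.25. Sln, sarcolipin, which uncouples the calcium pump, was at 5.08 and 6.30 in brown fat, against 0.55 and 0.63 in inguinal fat. The higher brown value was in brown library 2, which held more muscle RNA than brown library 1. The summed muscle level was higher still in both inguinal libraries, and the part of muscle RNA in the values of Sln was not tested. Those lower were Gamt, which completes creatine synthesis, at 6.06 and 6.09 in brown fat, against 9.20 in both inguinal libraries, and the muscle genes Atp2a1 and Ryr1. Ryr1 differed by −3.07, and by −1.54 without brown library 1.

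Of 18 compared transcription factors of the brown lineage, 8 were called higher and 1 lower, with a median of 0.56, against 5 higher and 7 lower and a median of −0.58 with no common scaling. Zic1, a marker of brown fat of the mouse interscapular depot, was at 6.11 and 5.96 in brown fat, against 0.60 and 0.58 in inguinal fat. Ppara, the lipid-sensing receptor that drives fatty acid oxidation, was at 12.82 and 12.67 in brown fat, against 7.31 and 7.61 in inguinal fat. The estrogen-related receptors, which drive mitochondrial genes, were all higher: Esrrb by 5.23, Esrra by 2.40 and Esrrg by 2.36. Esrrb was at 6.96 and 6.88 in brown fat, against 1.78 and 1.61 in inguinal fat. Ebf2, which opens brown fat enhancers, was at 9.45 and 9.22 in brown fat, against 7.67 and 7.79 in inguinal fat, a difference of 1.60. Hlx, a homeobox factor, differed by 1.61 and Nfia, a partner of Ebf2, by 1.0. Nfia was under the size of a call without brown library 1 or inguinal library 1, at 0.93 and 0.98, and with ribosomal centring, at 0.85. With no common scaling Ebf2, Hlx and Nfia stood at 0.63, 0.46 and 0.13 and were not called.

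The best-known determinant of the lineage differed little on the common scale. Prdm16, the coregulator that holds precursors to the brown fate, was at 5.51 and 5.37 in brown fat, against 5.06 and 5.08 in inguinal fat, a difference of 0.37 that was not called. As deposited Prdm16 was at 4.82 and 4.73 in brown fat, against 5.75 and 5.72 in inguinal fat. Its partner Ehmt1 differed by 0.08. Lhx8, used as a brown marker, was at 5.20 and 4.98 in brown fat, against 5.10 and 5.33 in inguinal fat, and these pairs overlapped. Its deposited values were 4.52 and 4.34 in brown fat, against 5.79 and 5.96 in inguinal fat, without overlap. Irf4, which acts with Ppargc1a in fasted and cold brown fat, differed by −0.27 and Thrb, a thyroid hormone receptor, by −0.22. Among factors of the somite lineage that brown fat shares with muscle, Meox2 at 0.76, En1 at −0.74 and Eya1 at −0.83 were not called either. Pax7 stood only in the inguinal table, at 1.73 and 1.60 as deposited. Gata6 was called lower in brown fat, at 4.22 and 4.13, against 5.56 and 5.71 in inguinal fat.

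Hox genes, which mark position along the body, split by paralog number in the Hoxa and Hoxc clusters. Low paralog numbers lie towards the head and high ones towards the tail in the embryo. Of 22 compared, 5 were called higher and 6 lower in brown fat, near the shares of 18.2% and 18.8% over all symbols. Their median was −0.21, and with no common scaling 3 were higher and 15 lower with a median of −1.45. Of the 11 of paralog groups 1 to 5, 5 were higher and 1 lower, with a median of 0.95, and of the 11 of groups 6 to 9, 0 were higher and 5 lower, with a median of −0.76. All the higher ones lay in the Hoxa and Hoxc clusters. In groups 1 to 5 of the other clusters, Hoxb3, Hoxb4 and Hoxd3 were not called, at −0.30, 0.90 and −0.46, and Hoxb5 was lower. Hoxa5 was at 8.09 and 7.90 in brown fat, against 4.85 and 4.56 in inguinal fat, and Hoxa4 at 7.31 and 7.24 in brown fat, against 3.64 and 3.69 in inguinal fat. Hoxc9 was at 0.49 in both brown libraries, against 7.07 and 7.31 in inguinal fat, and Hoxa9 at 2.67 and 2.66 in brown fat, against 6.34 and 6.52 in inguinal fat. The libraries of each tissue lay close together in these genes, but rlog itself draws libraries of 1 table together. Hoxc9 and Hoxa9 had brown means under 3, where the size of a difference is uncertain. Hoxc8 was at 6.05 and 6.16 in brown fat, against 9.83 and 10.10 in inguinal fat. Along the Hoxa cluster the difference was 3.61 for Hoxa4, 3.29 for Hoxa5, −0.01 for Hoxa6, −0.27 for Hoxa7 and −3.77 for Hoxa9. Hoxa10 and Hoxc10 stood only in the inguinal table, at 7.51 and 7.81 and at 7.94 and 7.92 as deposited. The smaller calls depended on the settings: Hoxa3, at 1.04, was at −0.25 with no common scaling, and Hoxb5 at −1.20, Hoxb7 at −1.03 and Hoxd9 at −1.09 were not called where a mean of at least 5 was required.

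**Figure D4:**
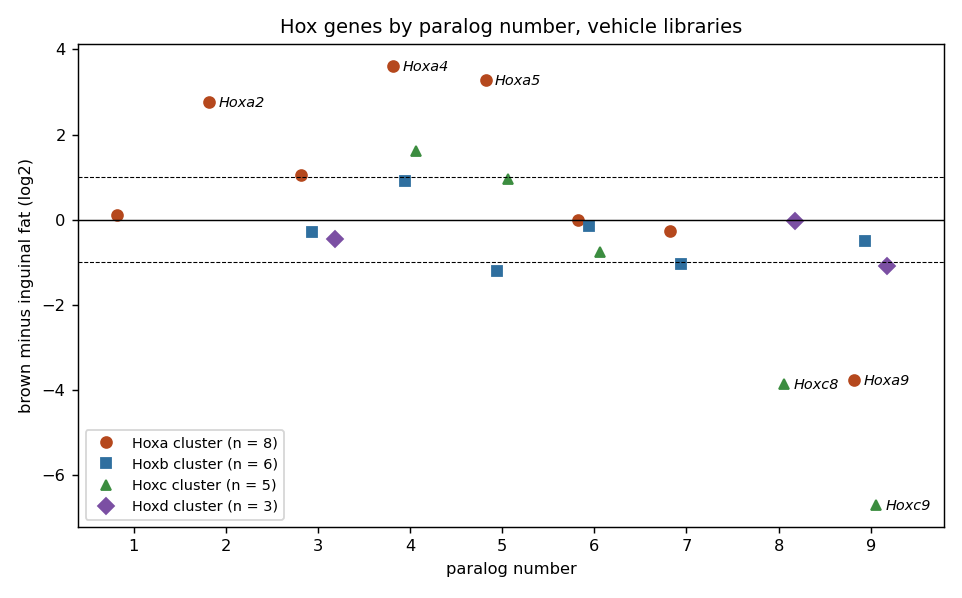
Brown minus inguinal difference (log2 of normalized values, vehicle libraries) of 22 Hox genes against their paralog number, with 1 marker shape per cluster and dashed lines at a difference of 1 in either direction. The differences lie at up to 3.61 in groups 1 to 5 and at down to −6.70 in groups 6 to 9.

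White fat identity genes were lower in brown fat: of 19 compared, 17 were called lower and 0 higher, with a median of −3.66. The list holds Hoxc8 and Hoxc9, which also stand in the Hox list. Retn, which encodes the hormone resistin, was at 8.61 and 9.19 in brown fat, against 14.08 and 14.38 in inguinal fat. Mest, an imprinted gene linked to adipocyte expansion, was at 5.86 and 5.94 in brown fat, against 13.24 and 13.35 in inguinal fat. Sfrp5, a secreted inhibitor of Wnt signals, was at 4.85 and 5.01 in brown fat, against 12.19 and 12.25 in inguinal fat. The differences of these genes were −5.33, −7.40 and −7.29.

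Slc7a10, an amino acid transporter of white adipocytes, was at 6.11 and 6.27 in brown fat, against 11.49 in both inguinal libraries. Npr3, which clears natriuretic peptides, was at 11.08 and 11.37 in brown fat, against 14.79 and 14.98 in inguinal fat, and Psat1, an enzyme of serine synthesis, at 6.71 and 6.69 in brown fat, against 11.37 and 11.39 in inguinal fat. Agt, which encodes angiotensinogen, differed by −3.47, Nnmt, which methylates nicotinamide, by −2.90, and Nrip1, a corepressor of thermogenic genes, by −2.49. Igfbp3, at −0.65, and Serpina3k, at 0.84, were not called, and the Serpina3 family has near-identical members among which reads could be shared.

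Hormones and other secreted factors went both ways, with 6 of 23 called higher and 13 lower in brown fat and a median of −1.29. Those higher were Bmp8b, Fgf21, Nrg4, Vegfa, Nampt and Gdf15. Bmp8b, a bone morphogenetic protein that sensitizes brown fat to noradrenaline, was at 4.46 and 4.37 in brown fat, against 0.74 and 0.73 in inguinal fat. Fgf21, a hormone induced by cold, was at 4.65 and 4.54 in brown fat, against 2.77 in both inguinal libraries. Nrg4, a ligand of epidermal growth factor family receptors that brown fat secretes, was at 10.76 and 10.82 in brown fat, against 9.26 and 9.55 in inguinal fat. Vegfa, the main growth factor of blood vessels, was at 12.92 and 12.85 in brown fat, against 11.18 and 11.08 in inguinal fat. In each of these genes the brown pair lay clear of the inguinal pair on the common scale. Nampt and Gdf15 differed by 1.70 and 1.61. With no common scaling 3 of the list were called higher and 16 lower, with a median of −2.19. There Fgf21, Nrg4 and Gdf15 stood at 0.40, 0.54 and 0.26 and were not called. Igf1, insulin-like growth factor 1, was at 7.02 and 7.20 in brown fat, against 11.27 and 11.21 in inguinal fat, and Fgf10, a growth factor for preadipocytes, at 5.47 and 5.62 in brown fat, against 8.75 and 8.98 in inguinal fat.

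Genes that all adipocytes use were split, with 4 of 24 called higher and 10 lower in brown fat and a median of −0.85, which was −0.01 with 7 higher and 6 lower under median centring and −0.37 with 5 higher and 6 lower under ribosomal centring. Pparg, the master regulator of adipocytes, was at 12.19 and 12.003 in brown fat, against 11.04 and 11.09 in inguinal fat, a difference of 1.03. Pparg was not called without brown library 1, at 0.92, or with no common scaling, at 0.37. Cebpb, an early adipocyte factor, was at 10.37 and 10.10 in brown fat, against 8.00 and 7.95 in inguinal fat. Gpd1, which makes glycerol phosphate, was at 16.02 in both brown libraries, against 14.25 and 14.32 in inguinal fat. Adipoq, which encodes adiponectin, was at 13.58 and 13.68 in brown fat, against 15.62 and 15.89 in inguinal fat, a difference of −2.12. Tshr, the receptor for thyrotropin, was at 6.54 and 6.59 in brown fat, against 11.04 and 11.09 in inguinal fat, a difference of −4.50. Car3, carbonic anhydrase 3, differed by −3.86, Cfd, adipsin, by −2.75, Cidec, a lipid droplet fusion protein, by −2.73, and Lpl, lipoprotein lipase, by −2.60, and with median centring Lpl stood at −1.34.

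Markers proposed for beige adipocytes were not higher in brown fat as a group. Of 9 compared, 1 was called higher and 4 lower, against 18.2% and 18.8% of all symbols, with a median of −0.84. Tbx1 was at 0.98 in both brown libraries, against 5.26 and 4.43 in inguinal fat, and Tmem26 stood only in the inguinal table, at 4.23 and 3.89 as deposited. Klhl13 differed by −2.67, Shox2 by −2.18 and Slc27a1 by −1.23. The gene called higher, Tnfrsf9, was at 4.38 and 4.34 in brown fat, against 2.96 and 3.13 in inguinal fat, a difference of 1.32 that was −0.04 with no common scaling.

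Adrenergic signalling and lipolysis held genes of both directions, with 9 of 23 called higher and 7 lower, against 18.2% and 18.8% of all symbols. Their median was 0.05, and with no common scaling 5 were higher and 9 lower with a median of −0.33. The beta receptors differed from each other. Adrb1 was at 8.46 and 8.24 in brown fat, against 5.04 and 5.13 in inguinal fat, a difference of 3.27. Adrb3, the receptor typical of adipocytes, was at 12.33 and 12.30 in brown fat, against 11.42 and 11.08 in inguinal fat, a difference of 1.07. Adrb3 was not called without inguinal library 2, at 0.93, or with no common scaling, at 0.43. Downstream of them, Gnas, which encodes the stimulatory G protein, differed by 2.69 and Adcy3, an adenylyl cyclase, by 2.58, and Adra1a, an alpha receptor, by 2.24. Plin4, a perilipin of white adipocytes, was at 13.32 and 13.55 in brown fat, against 16.73 and 16.62 in inguinal fat, a difference of −3.24. Npr3 and Cidec were lower, as given above, as were the alpha receptors Adra2a, by −1.37, and Adra1b, by −1.35, and the lipolysis genes Mgll, by −1.28, and Plin1, by −1.08. Mgll and Plin1 were not called with median centring, at −0.51 and −0.37.

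In the thyroid hormone axis 3 of 11 genes were called higher and 2 lower, with a median of −0.20, near the shares of 18.2% and 18.8% over all symbols. With no common scaling 3 were higher and 6 lower, with a median of −1.03. Besides Dio2, Thrsp, a lipogenic gene induced by the hormone, was higher, at 14.21 and 14.54 in brown fat, against 12.49 and 12.82 in inguinal fat. Tshr and Rxra, a partner of the hormone receptors, were lower, Rxra by −1.68.

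Genes of the vessel wall mostly stood close together in the tissues. Of 23 endothelial genes, 2 were called higher and 2 lower, against 18.2% and 18.8% of all symbols. Their median was 0.30, and with no common scaling 2 were higher and 4 lower, with a median of −0.59. The receptors for vascular endothelial growth factor were the higher ones, with Flt1 at 11.42 and 10.99 in brown fat, against 9.32 and 9.16 in inguinal fat, and Kdr at 11.84 and 11.46 in brown fat, against 9.79 and 9.77 in inguinal fat. Plvap, which forms the diaphragms of fenestrated endothelium, was at 7.33 and 7.21 in brown fat, against 9.16 and 8.90 in inguinal fat, and Aplnr, the apelin receptor, at 6.77 and 6.65 in brown fat, against 8.01 and 8.13 in inguinal fat. Of 12 pericyte and smooth muscle genes, 3 were called higher and 2 lower with a median of 0.14, near the shares of 18.2% and 18.8% over all symbols. Cnn1, Kcnj8 and Rgs5 were higher, by 2.09, 2.0 and 1.25, and Acta2 and Mylk lower, by −2.52 and −1.41. With no common scaling 0 were called higher and 5 lower, the median was −0.81, and Cnn1, Kcnj8 and Rgs5 stood at 0.84, 0.96 and 0.65.

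Fibroblast and matrix genes were lower in brown fat, with 23 of 24 called lower and a median of −2.86. Col15a1, a basement membrane collagen, was at 8.36 and 8.58 in brown fat, against 13.64 and 13.74 in inguinal fat, and Col1a1, of fibrillar collagen, at 9.02 and 9.24 in brown fat, against 13.22 and 12.90 in inguinal fat. Ccdc80, a secreted matrix protein, differed by −4.85 and Igfbp4 by −4.10, and Postn, at −0.76, was not called. All 17 macrophage genes compared were called lower in brown fat, with a median of −2.55. Itgax, an integrin of macrophages and dendritic cells, was at 4.17 and 4.15 in brown fat, against 8.75 and 8.14 in inguinal fat, and Trem2, a lipid-sensing receptor, at 3.65 in both brown libraries, against 7.94 and 7.18 in inguinal fat. The summed macrophage level was 11.87 and 12.12 (log2) in brown fat, against 14.80 and 14.45 in inguinal fat.

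Markers of a lymph node were present in both vehicle inguinal libraries. Of 21 lymph node and lymphocyte genes, 19 were called lower in brown fat and 0 higher, with a median of −2.06, and the summed level was 7.25 and 7.24 (log2) in brown fat, against 8.97 and 9.54 in inguinal fat. Glycam1, of lymph node venules, stood only in the inguinal table, at 4.44 and 4.41 as deposited. In the sunitinib libraries the median difference of this list was −4.71. The part of lymph node and muscle RNA in other differences was not tested.

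Markers of other tissues were few. Of 19 epithelial and mammary gland genes 5 reached the comparison, and 4 were called lower in brown fat with a median of −3.03, among them Trf, transferrin, at 5.07 and 5.17 in brown fat, against 8.87 and 8.98 in inguinal fat, and Prlr, the prolactin receptor, at 3.18 and 3.19 in brown fat, against 6.28 and 6.24 in inguinal fat. Adipocytes can express Trf and Prlr as well. Epcam, an epithelial surface marker, stood only in the inguinal table, at 3.17 and 3.35 as deposited, and the list's summed level was 5.72 and 5.79 (log2) in brown fat, against 9.16 and 9.25 in inguinal fat. Of 12 Schwann cell and nerve genes, 2 were called higher and 4 lower in brown fat, against 18.2% and 18.8% of all symbols. Their median was −0.37, and 0.02 without inguinal library 1. Prx, a gene of peripheral myelin, was at 5.83 and 5.89 in brown fat, against 7.73 and 6.13 in inguinal fat, and without inguinal library 1 its difference was −0.27 in place of −1.07. Of 10 blood genes 3 were compared, and Alas2, of red cell precursors, was called higher, by 1.33. With no common scaling Alas2 stood at 0.25 and was not called. Of 43 cytosolic ribosomal proteins, a check of scaling, 1 was called higher, Rps2 by 1.42, and the median was −0.24. With no common scaling Rps2 stood at −0.16.

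**Figure D5:**
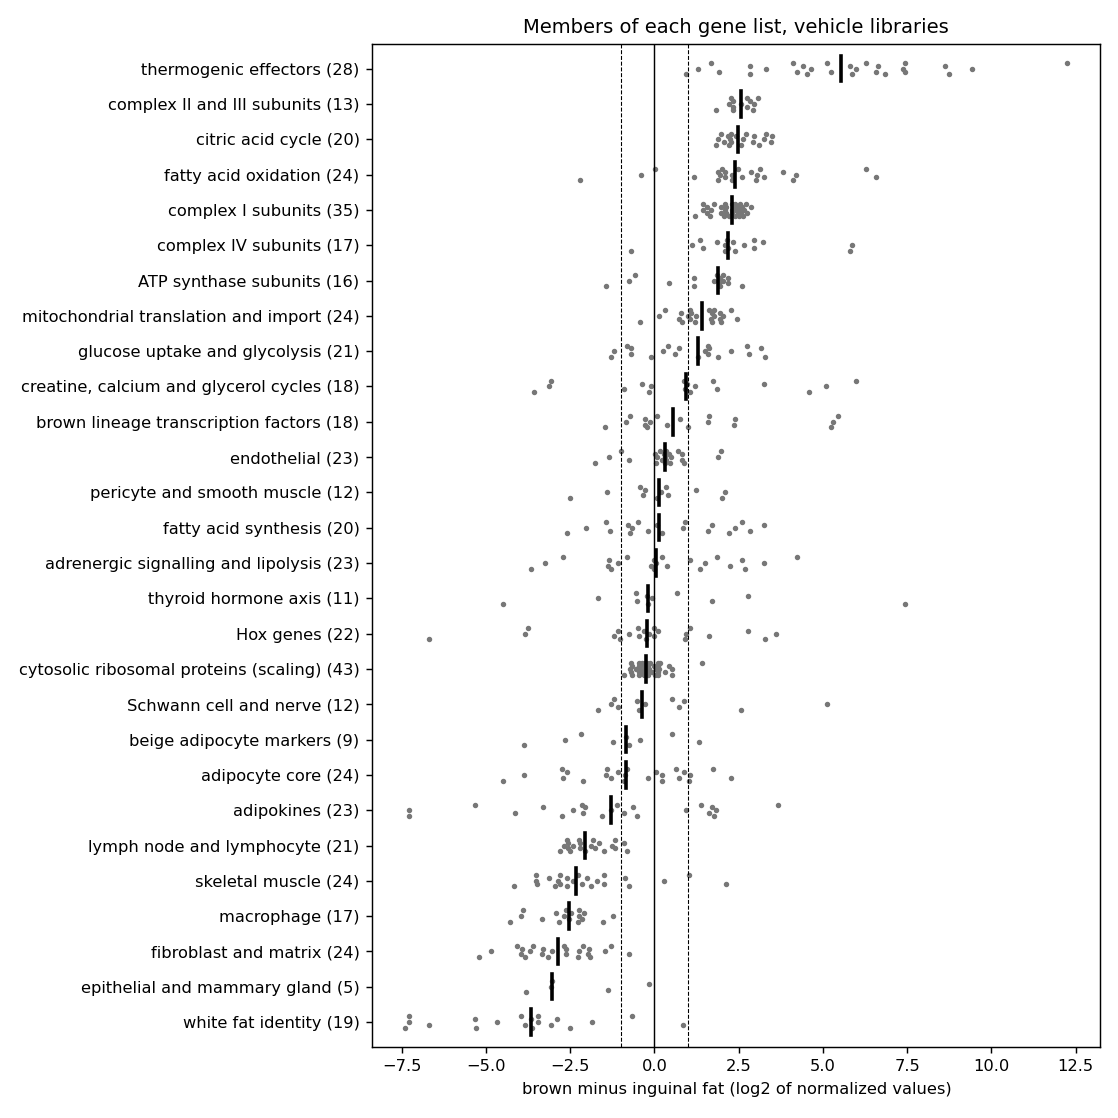
Brown minus inguinal difference (log2 of normalized values, vehicle libraries) of each compared member of 28 gene lists, with the number compared in parentheses, a thick bar at each list's median, and dashed lines at a difference of 1 in either direction. Thermogenic effectors have the highest median, at 5.52, and white fat identity genes the lowest, at −3.66.

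Genes with the largest lower values in brown fat held few classical adipocyte genes. Oxtr, the oxytocin receptor, was at 2.87 and 2.92 in brown fat, against 11.24 and 11.64 in inguinal fat, a difference of −8.55. Slc5a7, the choline transporter of cholinergic neurons, was at 2.85 and 2.86 in brown fat, against 10.36 and 10.10 in inguinal fat. Tph2, the tryptophan hydroxylase of serotonergic neurons, was at 2.92 and 2.91 in brown fat, against 9.74 and 9.28 in inguinal fat. Both neuronal genes were thus high in both inguinal libraries, while the Schwann cell and nerve list had a median of −0.37. They were not high in inguinal fat alone. With the vehicle libraries of all tissues normalized together, Slc5a7 was at 10.66 and 11.24 in epididymal fat, against 10.41 and 10.14 in inguinal fat. Tph2 was at 9.52 and 9.61 in epididymal fat, against 9.77 and 9.29 in inguinal fat. Oxtr was at 11.35 and 12.28 in epididymal fat, against 11.35 and 11.74 in inguinal fat. The part of nerve RNA in these differences was not tested. Fam110c differed by −7.46, Serpina3n, a secreted protease inhibitor with near-identical relatives, by −6.94, Ubd, a ubiquitin-like modifier, by −6.68, and C6, a component of the complement attack complex, by −6.66. Kcnj14, a potassium channel, Sez6l and Crtac1 differed by −6.68, −6.60 and −6.58.

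Symbols that stood in only 1 of the tables were not compared. The brown table held 671 symbols absent from the inguinal one, of which 16 had a mean of at least 3 as deposited, and the inguinal table held 3110, of which 160 did. The named ones with the highest values in brown fat were Fam131c, at 5.72 and 5.45, Rspo4, an R-spondin, at 5.36 and 5.12, and Scnn1g, a sodium channel subunit, at 3.97 and 3.80. In inguinal fat they were Itgad, an integrin of macrophages, at 9.66 and 8.45, Hoxc10, Klf14, a transcription factor of adipose tissue, at 7.82 and 7.69, and Hoxa10. Just inside the minimum of the comparison were Zfp473, with deposited means of 2.54 in brown fat and 3.001 in inguinal fat, and Hist1h4c, with 2.92 in brown fat and 3.004 in inguinal fat. Just outside it were Ch25h, with 2.996 in brown fat and 2.93 in inguinal fat, and Unc5c, with 0.63 in brown fat and 2.99 in inguinal fat.

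The same contrast in the sunitinib libraries called 2828 symbols higher in brown fat (18.9%) and 2753 lower (18.4%). Of the symbols called higher in the vehicle libraries, 2414 were called higher in the sunitinib libraries too, which was 88.8% of the vehicle calls and 85.4% of the sunitinib calls. Of those called lower, 2420 were shared, or 86.0% and 87.9%, and 0 symbols were called in opposite directions. The sunitinib values were normalized in the same tables by the authors as the vehicle values, so these counts are not independent of each other. The difference of Ucp1 was 12.08 in the sunitinib libraries, against 12.26 in the vehicle libraries. The median of the thermogenic effectors was 5.70 in the sunitinib libraries, against 5.52 in the vehicle libraries, and that of the white fat identity genes −4.20, against −3.66. The endothelial median was 0.998 with 11 genes higher and 1 lower in the sunitinib libraries, against 0.30 with 2 higher and 2 lower in the vehicle libraries. That of the skeletal muscle genes was 0.29 in the sunitinib libraries, against −2.34 in the vehicle libraries. Whether these medians differ between treatments was not tested.

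The vehicle libraries of epididymal fat and liver place the named genes further, with 15036 symbols of all 4 tables quantile-normalized over the 8 vehicle libraries. Ucp1 was at 16.58 in both brown libraries, against 4.36 and 3.99 in inguinal fat, 5.05 and 4.92 in epididymal fat and 5.18 and 5.17 in liver. Cidea was at 15.22 and 15.31 in brown fat, against 6.04 and 6.67 in inguinal fat, 5.40 and 5.35 in epididymal fat and 3.89 and 3.85 in liver. For both genes brown fat stood alone, and inguinal fat lay nearer to epididymal fat than to brown fat. Lep was at 8.56 and 9.64 in brown fat, against 16.26 and 16.90 in inguinal fat, 16.58 in both epididymal libraries and 6.39 and 6.42 in liver. Mest was at 5.76 and 5.86 in brown fat, against 13.34 and 13.46 in inguinal fat, 13.53 and 13.69 in epididymal fat and 5.46 and 5.50 in liver. In these white fat genes the white depots stood together and brown fat nearer to liver. Hoxc9 was at 0.17 in both brown libraries, against 7.03 and 7.27 in inguinal fat, 5.54 and 5.62 in epididymal fat and −0.30 in both liver libraries.

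Some genes high in brown fat were high in liver too. Ppara was at 12.95 and 12.80 in brown fat, against 7.28 and 7.58 in inguinal fat, 7.09 and 7.16 in epididymal fat and 12.38 and 12.51 in liver. Elovl3 was at 10.80 and 10.03 in brown fat, against 2.73 and 3.12 in inguinal fat, 3.78 and 4.10 in epididymal fat and 10.57 and 10.46 in liver. Slc27a2 was at 12.21 and 11.89 in brown fat, against 3.23 and 3.09 in inguinal fat, 5.31 and 5.96 in epididymal fat and 14.23 and 14.11 in liver. Dio2, by contrast, was at 11.36 and 10.89 in brown fat, against 3.51 in both inguinal libraries, 3.84 and 3.92 in epididymal fat and 0.95 and 0.94 in liver.

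Motifs were searched on both strands of RefSeq promoters (250 bases before to 50 after the start, GRCm38.p6), which matched 10080 of the 14981 symbols. Shares are of symbols with a promoter, and a symbol was counted once if any of its promoters matched. The motif of the estrogen-related receptors (TCAAGGTCA) stood in 0.542% of symbols called higher in brown fat and 0.102% of those called lower. It stood in 0.356% of those not called and 0.466% of all 27025 symbols with a promoter. These shares rest on few matches, at 9 of 1659, 2 of 1955, 23 of 6466 and 126 of 27025 symbols. The cyclic AMP response element (TGACGTCA) stood in 3.62%, 1.74%, 3.80% and 2.03% in the same order. The motif of nuclear respiratory factor 1 (GCGCATGCG) stood in 4.04%, 1.69%, 4.47% and 1.95%, and TATAAA in 10.5%, 11.8%, 8.46% and 15.7%. For the response element and the respiratory factor motif the share among higher symbols was thus close to that among symbols not called, and that among lower symbols was smaller. No motif contains another. Of the 19 thermogenic effectors with a promoter, Dio2 and Clstn3 held the response element, 4 held TATAAA and 0 held the other motifs. Ucp1 and Lep held none of the letters searched within these windows. A match is only a run of letters, and enhancers lie outside these windows.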

How the data were processed

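RNA sequencing of total RNA, extracted with TRIzol and made into libraries by standard Illumina protocols per the labels' protocols, was deposited as 1 table per tissue. By the tables' names the authors deposited regularized log2 (rlog) values, 1 for each gene in each library. The submitters' processing notes name the build mm9 and the tools DESeq2, bedtools, TopHat2 2.1.1 and bcl2fastq 2.17.1.14, with no stated roles. How reads were counted, with which annotation and with or without strand is not given in the sources used here. Reads of a gene and an overlapping or antisense neighbour may therefore be mixed.

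Groups and replicate numbers came from the sample titles. Symbols turned into dates by a spreadsheet (21 in each table) were left out. Symbols in both tables with a mean of at least 3 in either tissue were kept, and the 4 vehicle columns were quantile-normalized together (Python 3.11.15, numpy 2.4.6, pandas 2.3.3), with the sunitinib columns treated in the same way apart. Because rlog draws libraries of 1 table together, the gap between replicates understates their true spread, and because the tables were normalized apart a difference between tissues depends on the common scaling. Depth is unknown, so no counting interval is given. The symbols were called by a size of at least 1 and no overlap, with no test. The calculation was tested on simulated data with equal numbers of higher and lower genes and no rlog shrinkage. That test cannot show whether the common scaling suits these data.

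The members and the 30 gene lists (613 genes) were chosen with earlier results of these data known, and a gene may stand in several lists. The genes named were the 15 called with the largest difference in each direction, leaving out predicted, clone and date names, all members of the thermogenic, brown lineage, white identity and isoform lists, up to 6 called members with the largest difference of each other list and those called against its direction, and defining markers of other tissues. Genes behind a count of 5 or fewer, the Atp5g family, genes of the mitochondrial genome and of complement, Adra1b, Adra2a, Mgll, Plin1, Tfam, Atp5b and some Hox genes were named after their values were seen. The alternatives were other scalings, other minimum values, other sizes of a call and leaving out each library. Some genes that these rules name are left out of the text.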

Additional observations from a re-analysis of the deposited data

How the results depend on the processing

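No paired analysis was possible because the tissues were compared across tables with no test, and the labels do not say that a replicate number marks the same mouse. With no common scaling, 854 symbols were higher and 7496 lower in brown fat, and the medians were 4.41 for thermogenic effectors, −4.75 for white fat identity genes and 1.67 for complex IV subunits. Median centring gave 2.76 for complex IV. Centring on cytosolic ribosomal proteins gave 1718 higher, 5.14 for thermogenic effectors, −4.02 for white fat identity and 2.39 for complex IV. The white fat identity median was −3.86 with 8 libraries normalized together and −3.74 with no minimum level. A size of at least 2 called 979 higher and 1198 lower, and a size of at least 0.5 called 4761 and 4422. Leaving out 1 library at a time gave 2605 to 2847 higher, 2730 to 2943 lower, and medians of 5.40 to 5.64, −3.82 to −3.52 and 2.12 to 2.38 for thermogenic, white identity and complex IV genes. Of 228 called named genes, 5 turned round in any of 10 settings: Hoxa3 (−0.25), Rps2 (−0.16) and Tnfrsf9 (−0.043) with no common scaling, and Fabp4 (0.029) and Scd1 (0.36) with median centring. Of the 27 other lists, none with a median of at least 1 in size turned round in these settings.

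The 2 libraries per tissue, values shrunk within a table and no read totals limit what these data can show. Differences of genes near the low end of the scale depend on that shrinkage. Sizes near 1 depend on the scaling and on single libraries. Muscle genes in brown library 2 and inguinal library 1, and Prx in inguinal library 1, stood apart from the other library of the tissue.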

Other observations

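Genes of complement and the acute phase, looked at after their values were seen, were mostly lower in brown fat. Of 25 listed, 22 were compared, and 16 were called lower and 1 higher, with a median of −2.17 against 0.04 over all symbols. Lbp, which binds bacterial lipopolysaccharide, was at 6.05 and 6.38 in brown fat, against 12.70 and 12.73 in inguinal fat. Cfb, complement factor B, was at 0.96 in both brown libraries, against 6.69 and 6.44 in inguinal fat, and C2, a protease of the classical pathway, at 4.01 and 4.09 in brown fat, against 7.21 and 7.32 in inguinal fat. Saa3, an acute phase protein of mouse adipocytes and macrophages, was at 2.60 in both brown libraries, against 9.32 and 8.44 in inguinal fat. These pairs lay far apart in each gene. C4b differed by −5.47, and its near-identical copy C4a by −0.29, so reads could be shared between them. Serping1, the inhibitor of the first complement proteases, was at 9.15 and 9.82 in brown fat, against 12.60 and 12.44 in inguinal fat. C3, the central component, was at 12.52 and 12.23 in brown fat, against 13.51 and 13.11 in inguinal fat, a difference of −0.93 that was not called. The gene called higher was Saa1, at 4.25 and 4.61 in brown fat, against 1.09 and 1.05 in inguinal fat. The summed level of macrophage genes was also lower in brown fat, at 11.87 and 12.12 (log2), against 14.80 and 14.45 in inguinal fat, and its part in these differences was not tested.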
